A study of Mus musculus with 2 samples.

Results

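The gelsolin-villin family was described in RNA sequencing data of CT26, a mouse colon cancer cell line. The family was taken by gene symbol as 8 genes (Avil, Vil1, Vill, Gsn, Scin, Capg, Svil and Flii), and all 8 were found among the 54680 loci of the deposited expression table, each on 1 row. It was chosen because Avil had one of the lowest ratios of the whole table, so the values of these 2 libraries chose the family, and the ratios below describe the libraries and test nothing. In the group named shSetdb1, cells labelled as a Setdb1 knockdown had received lentivirus with a short-hairpin RNA (shSetdb1). Setdb1 is a histone methyltransferase that marks silenced chromatin. In the group named shCtrl, cells labelled wild type had received lentivirus with the empty knockdown vector. Both cultures were CT26 cells grown in RPMI medium with serum and were collected after 6 days. The labels call the shSetdb1 cells differentiated and do not say how many hairpins or infections were used. Each group had 1 library, so no difference below has a replicate check.

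Proteins of this family are built from repeated gelsolin domains that bind actin. In the presence of calcium several of them sever actin filaments, cap the fast-growing end, or both. Villin and advillin carry in addition a C-terminal headpiece that binds filaments. Villin is the family member of the intestinal brush border, while advillin is best known from peripheral sensory neurons and tuft cells.

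The 2 libraries held 18421604 reads (shCtrl) and 19045830 reads (shSetdb1), recovered as whole numbers from the deposited values. Levels are given as FPKM (fragments scaled by gene model length and by 1 depth that the 2 libraries share). Differences are given as the log2 ratio of (FPKM + 1), shSetdb1 over shCtrl, on which differences between low levels look smaller than they are. These log2 ratios still carry the 1.03-fold ratio of the read totals. Read ratios are relative to each library's own total and carry a 95% exact binomial (Clopper-Pearson) interval that covers counting error only. As a check of the labels, Setdb1 had 1340 reads in shCtrl and 317 in shSetdb1, a log2 ratio of -1.72. The labelled origin was set against 12 markers of colon epithelium. Epcam and Cdh1, the defining epithelial adhesion genes, had 0 reads in both libraries, and 3 of the 12 reached 1 FPKM (Krt18, Krt19 and Krt20).

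For the 3 members past 2-fold on the log2(FPKM + 1) scale, the 250 bases upstream of a RefSeq start are printed. They are given for Avil, Capg and the first of 3 Gsn starts (GRCm38.p6, 5′ to 3′ on the plus strand, on which all 3 genes lie). The Avil and Gsn windows lie ahead of the annotated gene, but the Capg window lies within the annotated Capg span (72544391 to 72562983). Capitals mark each CG dinucleotide, the site of DNA methylation in mammals.
Avil, chr10:127000459-127000708: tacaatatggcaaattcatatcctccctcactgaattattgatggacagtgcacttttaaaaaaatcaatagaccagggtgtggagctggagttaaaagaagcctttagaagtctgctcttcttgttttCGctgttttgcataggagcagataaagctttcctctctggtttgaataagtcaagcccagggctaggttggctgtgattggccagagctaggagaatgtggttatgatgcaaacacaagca
Gsn, chr2:35256109-35256358: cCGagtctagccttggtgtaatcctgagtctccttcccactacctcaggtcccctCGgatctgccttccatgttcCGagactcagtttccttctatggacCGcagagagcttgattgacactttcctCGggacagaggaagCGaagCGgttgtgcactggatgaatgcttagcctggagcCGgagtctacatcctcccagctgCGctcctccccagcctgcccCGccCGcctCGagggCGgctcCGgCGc
Capg, chr6:72549397-72549646: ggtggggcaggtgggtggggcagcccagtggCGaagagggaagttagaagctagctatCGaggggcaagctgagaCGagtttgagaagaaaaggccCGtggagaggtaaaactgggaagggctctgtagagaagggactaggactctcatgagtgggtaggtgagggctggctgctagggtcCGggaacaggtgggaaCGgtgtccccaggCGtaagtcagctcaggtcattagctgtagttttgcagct

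The Avil window held 1 CG in 250 bases, the fewest of the 9 windows of the family, and 7.87% of all 32851 upstream windows of this length held fewer. The Capg window held 7 and the first Gsn window 15, against a median of 6 over all windows. The other Gsn windows held 2 and 12, and those of Vil1, Vill, Scin and Flii held 5, 7, 9 and 17. RefSeq windows were matched for 7 of the 8 genes, all but Svil. Letters GGGCGG, read on both strands and themselves holding a CG, were present in 5 of the 9 windows (those of Gsn, Scin and Vil1) and in 32.7% of all windows. CANNTG, which reads the same on both strands, was in 4 of the 9 windows, belonging to Gsn and Capg, and in 66.2% of all. The CArG box, also symmetric, was found in the Vil1 window alone and in 1.47% of all windows. TATAAA, read on both strands, was in 0 of the 9 and in 12.4% of all windows. Motif matches describe the letters of these windows.

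Gsn and Capg were the most abundant members in both libraries, and both were higher in shSetdb1, while Avil was the 1 member at or above 1 FPKM that was lower. Of the 8 genes, 5 (Gsn, Capg, Flii, Avil and Svil) were at 1 FPKM or more, each in both libraries, and 3 (Vill, Vil1 and Scin) were under it in both. Of the 5, Avil was lower by 2-fold or more, and Gsn and Capg were higher by 2-fold or more. Over the 10671 genes of the table that passed the same filter (1 FPKM in either library or both), 4.85% were lower by 2-fold or more and 6.81% were higher by as much. Since these values chose the family, nothing is read from its counts. The median log2 ratio of the 5 genes was 0.33, beside -0.00039 over all 10671 genes. Without members whose span overlaps another gene with reads the median was 0.67, from Capg and Svil alone.

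**Figure D1:**
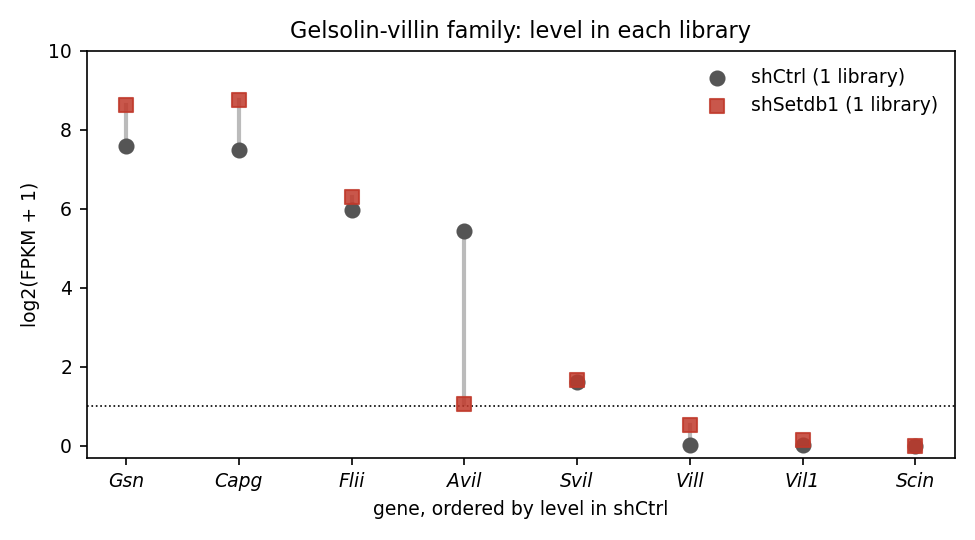
Level of each family member as log2(FPKM + 1) in the shCtrl library (grey circles) and the shSetdb1 library (red squares), 1 library each, joined by a grey line. Avil went from 42.5 to 1.10 FPKM, Gsn and Capg stood above all others in both libraries, and the dotted line marks 1 FPKM on this scale.

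Avil encodes advillin, which bundles actin filaments and lies on the plus strand of chromosome 10 (ENSMUSG00000025432, 127000709 to 127020994 in GRCm38). Its longest annotated transcripts have 20 exons. It was at 42.5 FPKM in shCtrl and 1.10 FPKM in shSetdb1, from 2706 and 70 reads. The shCtrl library was the high one, and the shSetdb1 level was 2.59% of it. On the log2 scale the ratio was -4.37, the third lowest of the 10671 genes. Relative to the totals, 0.0250 times as many reads were found in shSetdb1 (counting interval 0.0194 to 0.0317). In order of level, Avil moved from rank 1434 to rank 9860 of all loci. Its share of the family's summed FPKM was 8.91% in shCtrl and 0.121% in shSetdb1. In bulk RNA, fewer cells with a transcript and less of it per cell cannot be told apart, so these values do not say whether all cells or some had lower Avil.

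Part of Avil lies opposite Tsfm, which encodes a mitochondrial translation elongation factor on the minus strand. The spans share 9423 bases, but the annotated exons share 165, which is 4.86% of the 3398 exonic bases of Avil. Tsfm had 951 reads in shCtrl and 931 in shSetdb1 (17.5 and 17.1 FPKM), a read ratio of 0.947 with a counting interval of 0.864 to 1.04. The level of the overlapping gene thus differed by less than counting error, while the read ratio of Avil was 0.0250. The strand setting of the counting is not given in the sources used here, so the origin of reads within the shared bases cannot be told.

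Gsn and Capg, the family's most abundant members, stood close together. Gsn encodes gelsolin, the calcium-activated severing and capping protein, made in a cytoplasmic and a secreted form that this table does not separate. It lies on chromosome 2 (ENSMUSG00000026879, 35256380 to 35307892), and its levels were 193 FPKM in shCtrl (11433 reads) and 395 FPKM in shSetdb1 (23376 reads). Its log2 ratio was 1.03 and its read ratio 1.98 (1.93 to 2.02). The 2-fold call of Gsn was not kept under 3 other scalings, where its log2 ratio was 0.98 (own read totals), 0.97 (upper quartile) and 0.98 (log2 of CPM + 1). A short locus within the Gsn span, Gm43128, had 1 and 8 reads.

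Capg encodes the gelsolin-like capping protein, which caps filament ends without severing them. It lies on chromosome 6 (ENSMUSG00000056737, 72544391 to 72562983) and overlaps no other gene of the table. Its levels were 178 FPKM in shCtrl and 434 FPKM in shSetdb1, from 8432 and 20555 reads. The log2 ratio was 1.28, with a read ratio of 2.36 (2.30 to 2.42). In shCtrl Capg stood at 0.921 times the FPKM of Gsn, and in shSetdb1 at 1.10 times, so their order was exchanged. Together they made up 77.8% of the family's summed FPKM in shCtrl and 91.1% in shSetdb1. The sum over the 8 genes was 477 FPKM in shCtrl and 911 FPKM in shSetdb1. Without Avil, the gene that chose the family, the sum was 435 FPKM in shCtrl and 909 FPKM in shSetdb1. Part of the rise in the share of Gsn and Capg thus came with the fall of Avil.

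Flii and Svil, whose proteins join gelsolin repeats to other domains, differed little. Flii encodes the flightless-1 homolog, a protein with leucine-rich repeats that acts in actin remodelling and as a nuclear receptor coactivator. It lies on chromosome 11 (ENSMUSG00000002812, 60714123 to 60727263). It was at 61.4 FPKM in shCtrl (5797 reads) and 77.5 FPKM in shSetdb1 (7315 reads), with a log2 ratio of 0.33 (read ratio 1.22, interval 1.18 to 1.26). The Flii interval lies above 1, yet the difference is below 2-fold. Flii shares 64 exonic bases with Llgl1, a polarity gene on the opposite strand, which had 2044 and 3702 reads and a log2 ratio of 0.83.

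Svil encodes supervillin, a large membrane-linked protein that binds myosin II and actin. It lies on chromosome 18 (ENSMUSG00000024236, 4920540 to 5119299) and overlaps no other gene. The levels were 2.07 and 2.18 FPKM in shCtrl and shSetdb1, from 415 and 437 reads. The read ratio of 1.02 had a counting interval of 0.888 to 1.17, so a difference was not detectable at this depth. For genes known to work with Flii, Lrrfip1 and Lrrfip2, which encode its binding partners, had log2 ratios of 0.68 and 0.27. Myd88, the Toll-like receptor adaptor, had a log2 ratio of -0.44.

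Vill, Vil1 and Scin were near or at 0. Vill encodes villin-like protein and lies on chromosome 9 (ENSMUSG00000038775, 119052778 to 119071525). It had 2 reads in shCtrl and 37 in shSetdb1 (0.0242 and 0.448 FPKM), a read ratio of 17.9 with a wide counting interval of 4.62 to 153. Vil1, on chromosome 1 (ENSMUSG00000026175, 74409376 to 74435559), encodes villin, the filament bundler of intestinal microvilli. It had 1 read and 7 reads, and the interval of its ratio of 6.77, from 0.870 to 305, includes 1. Both levels stayed far below 1 FPKM, and the last 49 bases of Vil1 are shared with Usp37 on the other strand, which had 170 and 159 reads. Scin, on chromosome 12 (ENSMUSG00000002565, 40059769 to 40134228), encodes adseverin, the severing protein of secretory cells. It had 0 reads in both libraries, which allows up to 0.0534 FPKM (3 reads) in either.

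**Figure D2:**
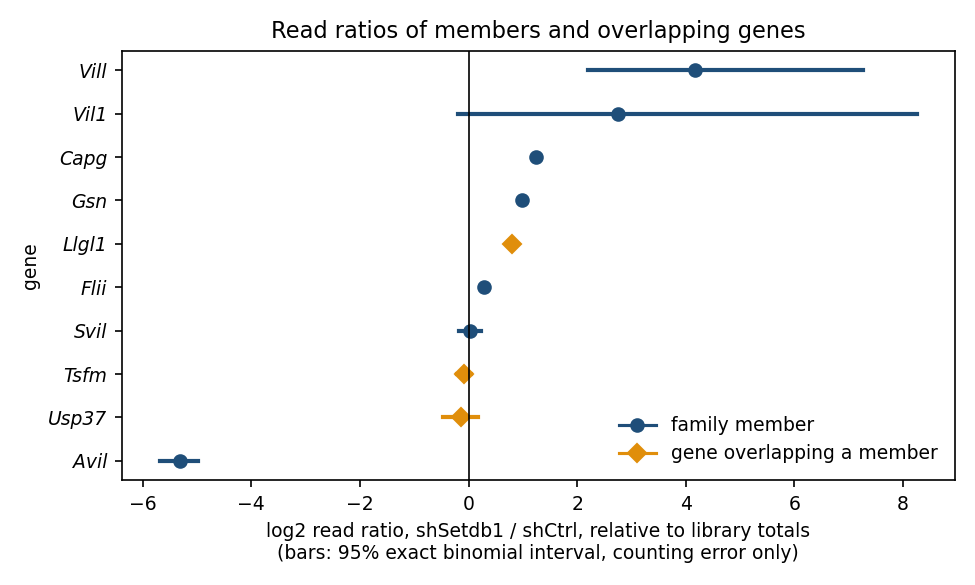
Log2 read ratios, shSetdb1 over shCtrl and relative to library totals, of 7 family members (blue circles) and of 3 genes that overlap one (orange diamonds), with 95% exact binomial intervals for counting error. Avil stands alone on the left, its overlapping gene Tsfm lies at 0.947-fold, and the intervals of Vill and Vil1 are wide because they rest on 2 and 1 reads in shCtrl.

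Within 100 kb of Avil, 14 loci with a symbol had reads, and 10 of them, Avil included, reached 1 FPKM. Besides Avil, Mettl1 and Cyp27b1 were at least 2-fold lower, and 0 of the 10 were at least 2-fold higher, beside 4.85% and 6.81% of all genes. Mettl1 encodes a tRNA methyltransferase and was at 18.7 FPKM in shCtrl and 6.92 FPKM in shSetdb1 (1017 and 377 reads), a log2 ratio of -1.31. For Cyp27b1, the vitamin D 1-alpha-hydroxylase, the reads were 77 and 6, with a log2 ratio of -1.21 (read ratio 0.0754, interval 0.0268 to 0.172). Cyp27b1 reached 1 FPKM in shCtrl alone, so among genes past the filter it could only be lower. Its direction therefore adds little to the counts of lower neighbours, in which it is included. All 4 neighbours on Avil's strand were lower in shSetdb1, beside 50% of all genes, and the other pair were Cdk4, the cyclin-dependent kinase, at -0.50 (15609 and 10995 reads) and Ctdsp2, a phosphatase gene, at -0.42 (9170 and 6840 reads).

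Of the 5 neighbours on the other strand, 2 were lower and 3 higher. Tspan31 was at 0.40, March9 at 0.33, Os9 at 0.29, Tsfm at -0.03 and Atp23 at -0.57. The grouping by strand was made after the values were seen. In a window of 200 kb, 4 of 5 genes on Avil's strand and 3 of 8 on the other were lower, and in a window of 500 kb 6 of 10 and 7 of 13, so the contrast between strands was not kept at the widest window. Mettl1 overlaps Eef1akmt3 (22 and 24 reads) and Cdk4 overlaps Tspan31, in each case on opposite strands. The 4 other loci with reads (Eef1akmt3, Gm47972, A730063M14Rik and Agap2) were under 1 FPKM in both libraries.

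**Figure D3:**
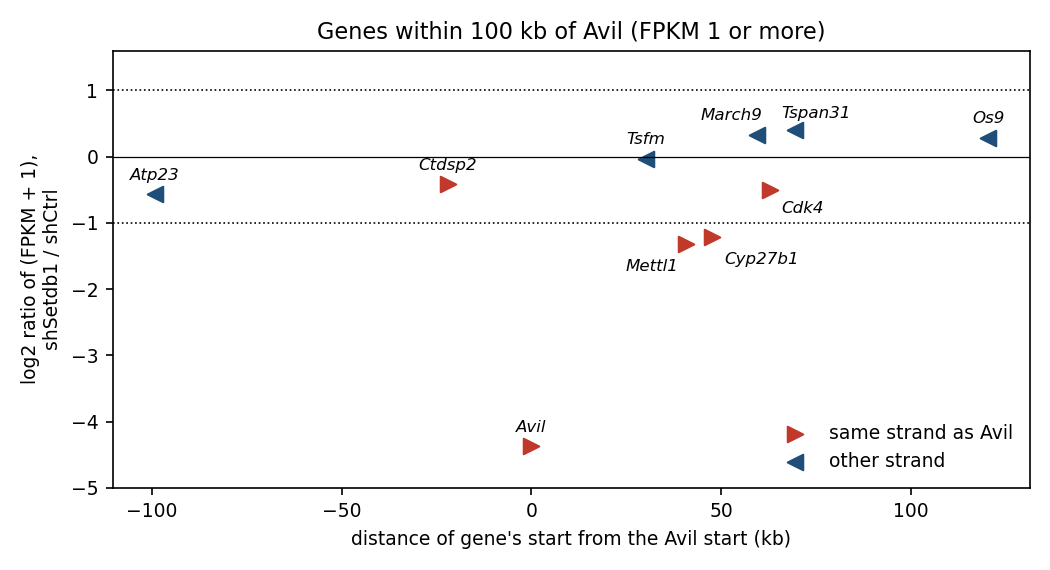
Log2 ratio of (FPKM + 1), shSetdb1 over shCtrl, of the 10 genes at 1 FPKM or more within 100 kb of Avil, against the distance of each gene's start from that of Avil in kb. Red triangles are genes on Avil's strand, all below 0, and blue triangles are genes on the other strand, of which 3 of 5 lie above 0.

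The 5 protein-coding genes whose pair of levels was nearest to that of Avil were P2rx3, Slc6a9, Cox6a2, Atp2a3 and Stard5. Likeness was the Euclidean distance of log2(FPKM + 1) over the 2 libraries, among 22045 other genes. With 2 libraries this describes a shared level and size of difference, no more. P2rx3, the ATP-gated channel of sensory neurons, was nearest at a distance of 0.63, with 27.5 FPKM in shCtrl and 1.34 FPKM in shSetdb1 (1439 and 70 reads). Its span overlaps Ssrp1, on the opposite strand, which had 11546 and 8949 reads. Slc6a9, the glycine transporter GlyT1, was at 41.7 and 3.35 FPKM (4019 and 323 reads), at a distance of 1.05. The Slc6a9 span overlaps B4galt2, also on the opposite strand, which had 1526 and 1203 reads.

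Atp2a3, a calcium pump of the endoplasmic reticulum, had 20.6 and 0.243 FPKM (2038 and 24 reads, distance 1.26). Cox6a2, the heart and muscle isoform of a cytochrome c oxidase subunit, was at 19.2 and 0.707 FPKM (245 and 9 reads, distance 1.14). Stard5, a lipid transfer gene, was at 28.3 and 4.38 FPKM (2894 and 448 reads, distance 1.47). The sixth gene in this order was nearly as close, at 1.502. Atp2a3 and Cox6a2 were below Avil in shSetdb1, and Avil was the highest of the 6 genes in shCtrl. Cox6a2 and Stard5 also overlap genes with reads, none of which had more than 21 reads in a library.

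**Figure D4:**
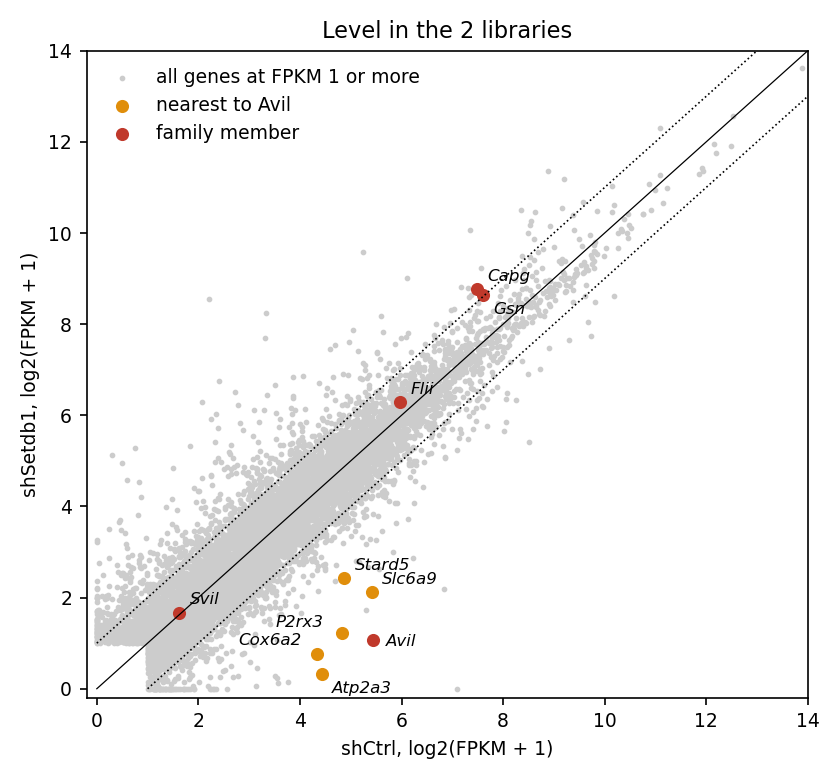
Level of each gene at 1 FPKM or more in shCtrl (x) and shSetdb1 (y), both as log2(FPKM + 1), with family members in red and the 5 genes nearest to Avil in orange. The solid line marks equal levels and the dotted lines a 2-fold difference on this scale. Avil and the 5 orange genes lie far below the lower line, and Gsn and Capg lie on or just above the upper one.

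Since advillin is known from sensory neurons and tuft cells, markers of both were examined. Of 20 sensory neuron markers, 4 reached 1 FPKM, namely P2rx3 (log2 ratio -3.61), Runx1 (0.03), Runx3 (0.03) and Calcb (0.21). Under scaling by the upper quartile 3 of the 4 were lower, the transcription factor genes Runx1 and Runx3 among them. The median of the 4 was then -0.02, beside -0.05 over all genes that reached 1 FPKM in both libraries. The signs of Runx1 and Runx3 thus changed with the scaling. The other 16 markers had 30 reads in shCtrl and 45 in shSetdb1 in all, mostly of Ret (28 and 23) and Prph (0 and 21). Of the 20, 11 had 0 reads in both, among them Scn10a, Isl1 and Pou4f1, which define these neurons.

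Of 16 tuft cell markers, 4 reached 1 FPKM. Sh2d6, an adaptor protein gene, had 340 reads in shCtrl and 7 in shSetdb1 (10.4 and 0.215 FPKM), with a log2 ratio of -3.24 (read ratio 0.0199, interval 0.00795 to 0.0415). Sh2d6 reached 1 FPKM in shCtrl alone, so among markers past the filter it could only be lower. Sox9, a transcription factor also found outside tuft cells, had a log2 ratio of 1.09, and Alox5ap and Ptgs1, of eicosanoid synthesis, had 0.49 and 0.20. The remaining 12 had 13 and 5 reads in all. Dclk1, Gfi1b and Il25 had 0 reads in both libraries, Pou2f3, the transcription factor that specifies tuft cells, had 0 and 2, and Trpm5 had 3 and 1. Summed over the lists, sensory markers were at 38.8 FPKM in shCtrl and 13.7 FPKM in shSetdb1, and tuft markers at 88.2 and 97.7 FPKM. Without P2rx3, the other 19 sensory markers were at 11.3 and 12.4 FPKM, and without Ptgs1 the other 15 tuft markers were at 18.5 and 17.3 FPKM.

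The family was then set beside other genes of actin filaments, in 5 lists chosen by function. None of the medians lay below 0, and 1 list (actins, monomer binding and tropomyosins) stood highest. In that list 10 of 15 genes reached 1 FPKM, 4 were higher by 2-fold or more and 0 lower by as much (6.81% and 4.85% over all genes), and the median log2 ratio was 0.58. Lower at any size were 0 of the 10, or 1 under scaling by the upper quartile or by own read totals, beside 50% of all genes. The highest were Tpm2, a tropomyosin, from 238 to 1004 reads (log2 ratio 1.86), and Pfn2, a profilin that binds actin monomers, from 471 to 1394 reads (1.44). The lowest were Tmsb4x, a thymosin that sequesters monomers, at 0.04, and Pfn1 at 0.13. Tmsb10 (1.24) and Tpm4 (1.20), named after their values were seen, were the other pair past 2-fold.

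Genes of severing and filament turnover had a median of 0.22 over 18 of 24 genes, with 1 gene higher and 1 lower by 2-fold or more, near the 6.81% and 4.85% of all genes. These were the twinfilin paralogs, which bind actin monomers and capping protein. Twf2 had 751 reads in shCtrl and 1724 in shSetdb1 (log2 ratio 1.15), while Twf1 had 849 and 326 (-1.24). The next in order were Cap1, a cofilin partner, at 0.85, and Tesk1, a cofilin kinase, at -0.24.

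Capping genes had a median of 0.09 over 9 of 18 genes. Of these, 1 was at least 2-fold higher, Eps8l2, with 11.4 and 27.5 FPKM (log2 ratio 1.20), and 0 were at least 2-fold lower, near the shares of all genes (6.81% and 4.85%). Capzb, the beta subunit of capping protein, was at 0.59, while its alpha subunit gene Capza2 was at -0.35, and Carmil1, an inhibitor of capping protein, was at -0.41.

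Bundling and microvillus genes had a median of 0.11 over 10 of 21 genes, with 2 genes higher and 2 lower by 2-fold or more, beside 6.81% and 4.85% of all genes. Ezr, encoding the membrane linker ezrin, had 124 and 259 FPKM (log2 ratio 1.06), and Slc9a3r1, encoding its scaffold partner, had 12.4 and 30.0 FPKM (1.21). Rdx, encoding the ezrin homolog radixin, went the other way at 10.1 and 4.50 FPKM (-1.02). Baiap2l1, a membrane-curving protein gene, had 357 and 120 FPKM (-1.57, from 22517 and 7543 reads). The 11 genes of this list under 1 FPKM had 28 and 67 reads in all.

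For nucleation genes (the Arp2/3 complex, its activators and formins) the median was 0.22 over 21 of 31 genes, and 0 of 21 passed 2-fold in either direction, beside 11.7% of all genes. The formin genes Fmnl3 and Inf2 were highest, at 0.88 and 0.82, and the Arp2/3 subunit gene Arpc5 and its activator gene Wasf2 were lowest, at -0.89 and -0.75.

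**Figure D5:**
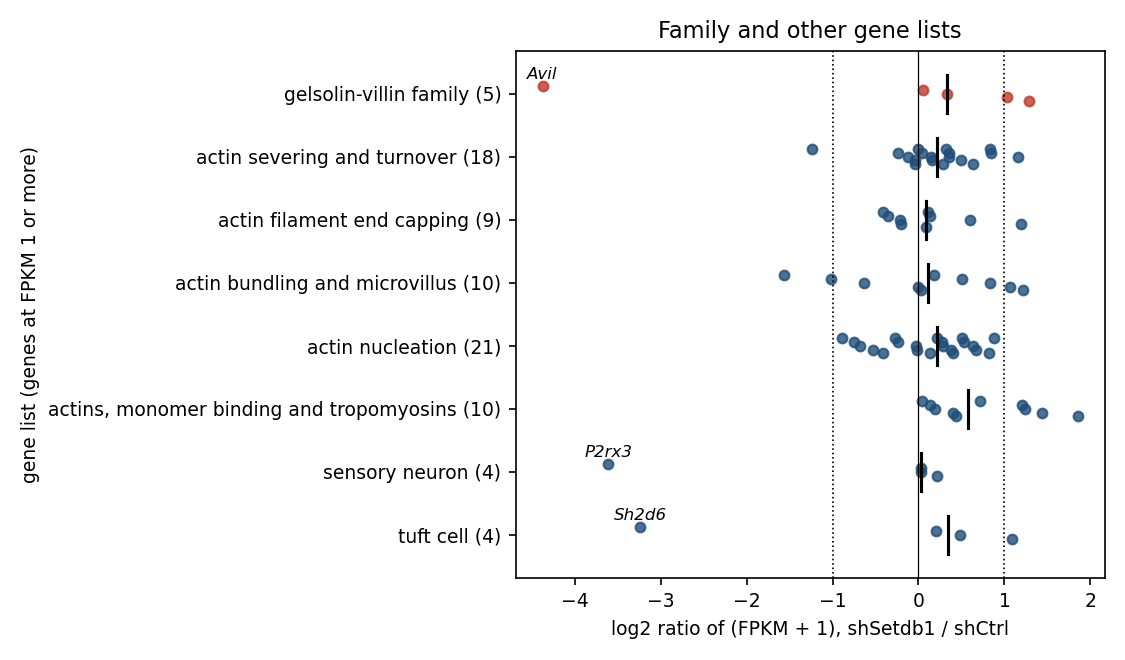
Log2 ratios of (FPKM + 1), shSetdb1 over shCtrl, of the family (red) and of 7 other lists (blue), each point a gene at 1 FPKM or more, with the number of genes in brackets and a black bar at the median. Dotted lines mark a 2-fold difference. Avil, P2rx3 and Sh2d6 are the 3 points below -2, while the medians of the 5 actin lists lie between 0.09 and 0.58.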

How the data were processed

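The deposited table holds FPKM values made by the authors, 1 column for each of the 2 libraries, with gene model lengths and positions. The submitters' processing notes name CASAVA, HISAT2, featureCounts 1.5.0-p3 and GRCm38; the strand setting and annotation release are not given in the sources used here. Of 54409 gene IDs also in GENCODE M21 (GRCm38), 98.3% had the same position and strand, as had all 8 family members. Reads were recovered as FPKM times length over a common step, and 100% of values above 0 were whole within 0.001. The authors' 2 columns share 1 depth divisor (18731117 reads), so main ratios still carry the 1.03-fold ratio of the read totals.

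Log2 ratios used a pseudocount of 1. Counts took genes that reached FPKM 1 in either library, with a 2-fold threshold. With 1 library per group no test between conditions was made. The members, lists and alternatives were chosen with earlier results of these data known. The rule for named genes took Setdb1, the members, genes overlapping them, genes with reads within 100 kb of Avil, the 5 genes nearest to Avil by level, and the 2 highest and 2 lowest of each list, or all where fewer than 5 passed. Markers under FPKM 1, Ssrp1 and B4galt2 lie outside the rule and were named after their values were seen. Of the 67 genes the rule gave, 26 overlap another gene with reads and are less certain. Alternatives were 3 scalings, log2(CPM + 1), a filter at FPKM 5 or none, a pseudocount of 0.1, thresholds of 1.5-fold and 4-fold, and members without overlap; the wider windows around Avil were added after seeing the data. The calculations were tested on simulated data. Intervals came from scipy 1.17.1, tables from pandas 2.3.3 and numpy 2.4.6, and plots from matplotlib 3.10.9, under Python 3.11.15.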

Additional observations from a re-analysis of the deposited data

How the results depend on the processing

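On log2(CPM + 1) the Avil log2 ratio was -4.98, and a pseudocount of 0.1 gave -5.15, since a smaller pseudocount pulls low values less toward 0. It stayed within counting error under the other alternatives. The number of members at least 2-fold higher was 1 under scaling by the upper quartile, by own read totals and on log2(CPM + 1), where Gsn was just under 2-fold, and 0 at 4-fold. The family median was 0.23 without a filter on low values, 0.68 with the filter at 5 FPKM, 0.27 under upper-quartile scaling and 0.67 for members overlapping no other gene. The nucleation median was 0 without a filter and 0.33 with the filter at 5 FPKM. The median of actins, monomer binding and tropomyosins was 0.20 without a filter and 0.51 under upper-quartile scaling. Filters and the removal of overlapping members changed which genes entered. Scaling by the upper quartile and by own read totals divided the shSetdb1 levels by 1.04 and 1.03. Such a division lowers the log2 ratio of each gene with reads in shSetdb1. No other source of the moves was tested. Of 68 alternative values of the planned results, 54 moved by no more than counting error (or, for counts, 1.5 times). The other 14 moved further and 0 reversed. Of 39 values of the other members, Scin apart, 32 stayed and 7 moved. A filter cannot change the ratio of a single gene, so those values stayed by construction. For medians, counting error was taken as the median interval half-width of single genes, which is not the counting error of a median. Svil, Vill and Vil1 have no value with the filter at 5 FPKM. Between scalings the median of genes that reached 1 FPKM in both moved to -0.0540 at most. At a pseudocount of 0.1, 870 genes of the table were 2-fold lower and 1134 higher. Genes 2-fold higher made up 58.4% of the 2-fold genes, and 51.2% on log2(CPM + 1).

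No paired analysis was possible because there was a single library per group, and none could be left out. Depth limits Vil1, Vill and Scin, which had 7, 37 and 0 reads in shSetdb1.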

Other observations

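Of 12 colon epithelium markers, the 3 at 1 FPKM or more were keratin genes, and each was at least 2-fold higher in shSetdb1, beside 6.81% of all genes. Krt20, a keratin of differentiated intestinal cells, had 183 reads in shCtrl and 1285 in shSetdb1, a log2 ratio of 2.59. Krt18 had 1016 and 2423 reads (1.23). Krt19 had 1 and 53 reads, a read ratio of 51.3 with a counting interval of 8.81 to 2063. It reached 1 FPKM in shSetdb1 alone (1.53 FPKM, beside 0.0288 in shCtrl), so passing the filter nearly fixed its 2-fold call. The other 9, Vil1 among them, had 16 reads in shCtrl and 34 in shSetdb1 in all.

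Of 10 markers of leukocytes, endothelium and fibroblasts, 4 reached 1 FPKM. Cd68, a lysosomal membrane protein gene used as a macrophage marker, had 245 reads in shCtrl and 2360 in shSetdb1, a log2 ratio of 3.15, while the leukocyte gene Ptprc had 0 and 4 reads and Cd3e 0 in both. The endothelial genes Pecam1, Cdh5 and Kdr had 0 reads in both libraries. Fibroblast-associated Col3a1 and Col1a1 were at -0.96 and -0.41, and Pdgfrb at 0.10.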
